A study of Rattus norvegicus with 13 samples.

Results

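The 10 genes described here encode receptors, extracellular modulators, an intracellular mediator and well known targets of bone morphogenetic protein (BMP) signaling: *Bmp1*, *Bmper*, *Bmpr1a*, *Bmpr1b*, *Bmpr2*, *Smad1*, *Id1*, *Id2*, *Id3* and *Id4*. They were taken by gene name from a table of normalized read counts, in which each of the 10 names had 1 row, so they make up 10 of the 14716 rows. The study asked how gene expression in the posterior ventricular zone (VZ), the germinal epithelium beside the ventricle in which neural progenitors divide, differs between euthyroid and hypothyroid newborn rats. RNA was sequenced from VZ captured by laser microdissection from male Long Evans pups on postnatal day 2 (PN2), 1 pup per litter. The control group held 7 pups labelled euthyroid, whose dams drank water without PTU. The PTU group held 6 pups whose dams received 3 ppm propylthiouracil (PTU), an inhibitor of thyroid hormone synthesis, in the drinking water. By the sample labels the PTU dams were mildly hypothyroid and their offspring hypothyroid. Because PTU reached the pups through the dam, a response of the VZ and one of the mother cannot be told apart in this design.

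BMPs are secreted signaling proteins of the TGF-β superfamily. They assemble type I and type II serine/threonine kinase receptors, and the type I receptor then phosphorylates SMAD1, SMAD5 and SMAD9, which enter the nucleus together with SMAD4 and switch on target genes. The Id genes are classic targets: ID proteins carry a helix-loop-helix domain but no DNA-binding region, pair with E proteins and so keep proneural factors from binding DNA, and in the germinal zones of the brain they are known for holding progenitors undifferentiated. Outside the cell, antagonists such as Noggin and Chordin bind BMPs and block them, and proteases of the tolloid family release BMPs by cleaving Chordin.

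The sequences just upstream of 2 Id genes are shown because Id transcription is where the signal of SMADs reaches the genome. Each window covers 211 bases, from -250 to -40 relative to the start given in the promoter set (GRCr8). It was cut so that it ends before the RefSeq gene start of each of the 4 Id genes. It is written 5′ to 3′ on the strand of the gene. Capitals mark GTCT or its reverse complement AGAC, the core of the SMAD binding element.
*Id1*, chr3:161671314-161671524, plus strand: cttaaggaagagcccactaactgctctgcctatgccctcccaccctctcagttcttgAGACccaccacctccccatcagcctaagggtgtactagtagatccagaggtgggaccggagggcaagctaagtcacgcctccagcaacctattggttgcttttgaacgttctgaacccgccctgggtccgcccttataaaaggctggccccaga
*Id4*, chr17:16598333-16598543, minus strand: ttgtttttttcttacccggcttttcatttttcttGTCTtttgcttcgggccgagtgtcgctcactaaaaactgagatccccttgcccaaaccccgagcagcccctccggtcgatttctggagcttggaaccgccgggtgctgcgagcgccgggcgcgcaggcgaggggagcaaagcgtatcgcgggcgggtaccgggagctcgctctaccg
Of the 10 genes, 8 had an entry among the promoters (not *Bmp1* and *Bmpr1b*). GTCT, searched on both strands, stood once in the *Id1* window and once in the *Id4* window and was not found in those of *Id2* and *Id3*. It is a short and common motif, held by 79.1% of 33469 promoters in the same window. The GC-rich SMAD1/5 element GGCGCC (7.05% of all promoters) and the thyroid hormone response half-site AGGTCA (11.8%; both strands, no overlap with the other motifs) were not found in any of the 4 Id windows. At those shares most promoters lack each motif too. Bases outside the windows were not searched, so sites farther upstream would have been missed.

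The reads behind the table, estimated from the step between low values, numbered 22287026 to 43500804 per control pup and 28408098 to 44379762 per PTU pup. *Bmpr1b* was the most thinly covered of the 10 genes, with an estimated 70.0 to 239 reads per pup. *Sox2*, which marks neural stem cells, had 7107 ± 1050 normalized counts (SD, n = 7) in control and 6701 ± 969 (SD, n = 6) in PTU pups, so the captured tissue carried the marker of the VZ in both groups. Markers of other cell types differed between groups, among them markers of the choroid plexus, whose cells the study states were not part of the sequenced samples. All 10 choroid plexus markers were lower in PTU pups on average, 5 of them with an unadjusted p under 0.05 in limma; their summed level was 50764 to 142177 normalized counts in control pups (median 114925) and 23663 to 101427 in PTU pups (median 57128), and none was at 0 in any pup. All 10 neuron markers were higher on average, 5 of them with an unadjusted p under 0.05, with sums of 53712 to 77907 in control pups (median 74033) and 70389 to 124122 in PTU pups (median 86188). Of the ependymal markers 3 of 4 were lower on average (2 with an unadjusted p under 0.05), and of the astrocyte markers 6 of 6 (3 with an unadjusted p under 0.05). Of the oligodendrocyte lineage markers 6 of 6 were higher on average (1 with an unadjusted p under 0.05). The endothelial, pericyte, microglia and meningeal fibroblast lists held both directions. The 9 radial glia markers with a row were lower on average, 5 of them with an unadjusted p under 0.05, with sums of 99111 to 138253 in control pups and 82038 to 110489 in PTU pups; the part of these cell types in the results was not tested except where a fit with a marker score is given. In tissue of mixed cells such as this, fewer cells of a type and less RNA per cell cannot be told apart.

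No gene of the 10 passed the test across the transcriptome, and neither did any other row. The study's own comparison of these pups, made with DESeq2, reported *Bmp1*, *Bmper* and *Rgma* as lower in PTU pups. The absence of calls here thus belongs to the test used. Groups were compared with limma on log2(normalized count + 1) over all 14606 rows averaging at least 10, and 0 of the 10 genes had a Benjamini-Hochberg adjusted p of at most 0.05, against 0% of all rows tested. At an unadjusted p under 0.05 there were 2 of the 10, *Bmp1* and *Bmper*, both lower in PTU pups, against 16.3% of all rows (8.2% lower and 8.11% higher). The log2 fold change was below 0 for 7 genes and above 0 for 3, with a median of -0.09, where the median over all rows was 0.00. In none of the 10 genes were the groups fully separated, which was the case for 0.596% of all rows. The share of 2 in 10 is near that of all rows, and the confidence intervals of the other 8 genes included 0.

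**Figure D1:**
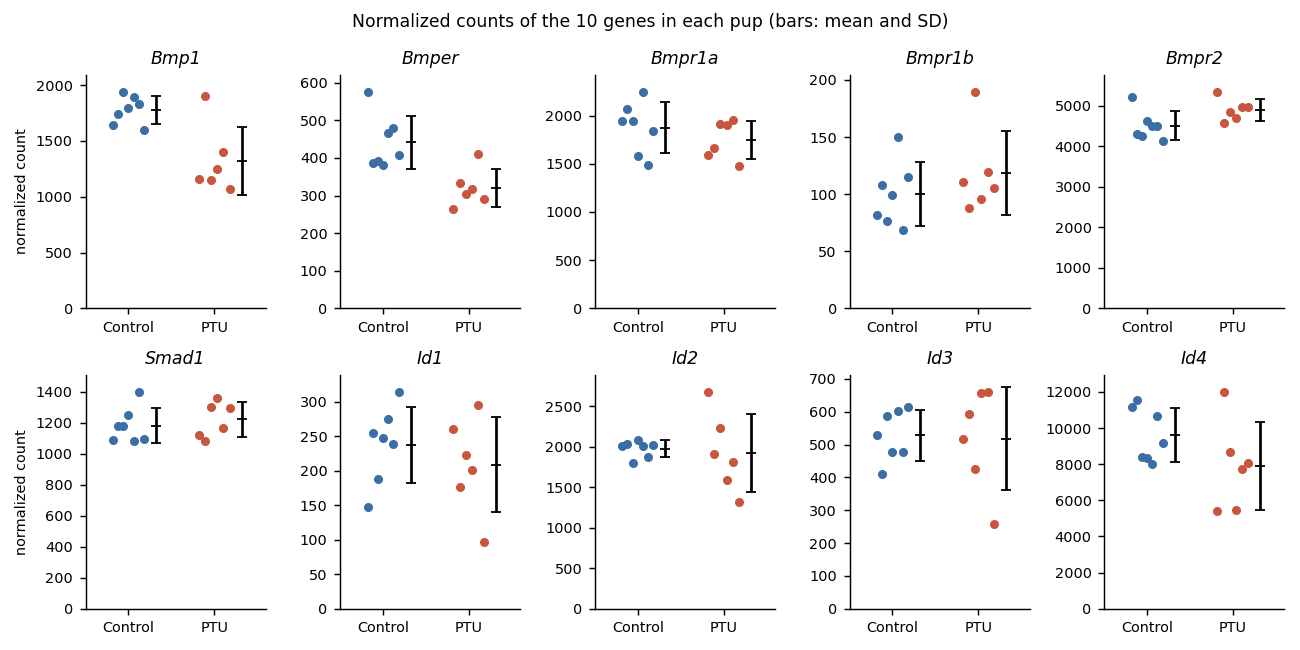
Normalized counts (vertical axes, each starting at 0) of the 10 genes in each of 7 control pups (blue) and 6 PTU pups (red), with the mean and SD as a black bar beside the points. *Bmp1* and *Bmper* lie lower in PTU pups, with 1 PTU pup inside the control range for each, and the Id genes scatter more widely among PTU pups than among controls.

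**Figure D2:**
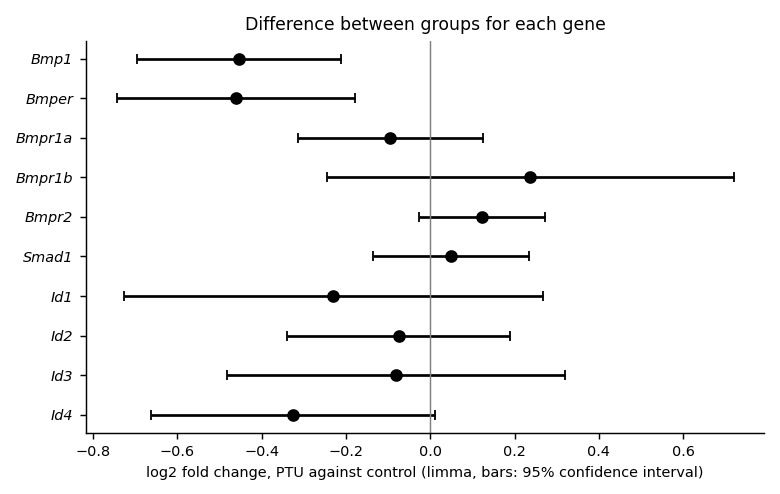
Log2 fold change of PTU against control (horizontal axis, limma) for each of the 10 genes, with the 95% confidence interval as a bar. The intervals of *Bmp1* and *Bmper* lie below 0, and the intervals of the other 8 genes include 0.

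*Bmp1* (ENSRNOT00000046054) encodes, despite its name, a metalloprotease of the tolloid family, which cleaves Chordin and the C-terminal propeptides of fibrillar procollagens. Its control pups spanned 1594 to 1940 normalized counts (median 1796), and its PTU pups 1067 to 1902 (median 1201). The means were 1778 ± 127 (SD, n = 7) and 1321 ± 306 (SD, n = 6), so that the PTU mean was 0.743 of the control mean. Every PTU pup but 1 was below the lowest control pup; that pup, PTU pup 2, reached 1902 and stood above the control mean. The log2 fold change was -0.45 (SE 0.11, 95% confidence interval -0.70 to -0.21, adjusted p = 0.132 in limma), and an exact permutation test over the 1716 regroupings of the pups (two-sided, unadjusted) gave p = 0.00699. Among the alternatives, all in limma, *Bmp1* passed only without PTU pup 2, where the log2 fold change was -0.56 and the adjusted p 0.0252. In that fit 179 rows passed, against 0 with all pups, so the change was not particular to *Bmp1*. Over all alternatives its adjusted p ranged from 0.0252 to 0.565.

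*Bmper* (ENSRNOT00000033460), a secreted protein that binds BMPs at the cell surface and can either restrain or promote their action, ranged from 381 to 575 normalized counts in control pups (median 408). In PTU pups it ranged from 263 to 410 (median 310). All 6 PTU pups were below the control mean and 5 of them below the lowest control; PTU pup 5, at 410, was the exception. The means were 441 ± 71.2 (SD, n = 7) and 320 ± 50.2 (SD, n = 6), a ratio of 0.725. The log2 fold change was -0.46 (SE 0.13, 95% confidence interval -0.74 to -0.18, adjusted p = 0.148 in limma; exact permutation test, two-sided, p = 0.00466). Both genes stayed lower with the choroid plexus, neuron or endothelial marker score in the fit. With the choroid plexus score as a covariate the *Bmp1* and *Bmper* log2 fold changes were -0.45 and -0.53. With the neuron score they were -0.34 and -0.40, and with the endothelial score -0.34 and -0.44. No score of radial glia, astrocyte or ependymal markers was fitted, so the part of these cell types was not tested. Scaled to the same total count for every pup, *Bmp1* and *Bmper* had -0.25 and -0.26, with unadjusted limma p-values of 0.199 and 0.239. The median of all rows moved to 0.20 in that scaling, so relative to that median both remained lower.

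Of the 3 receptor genes, 1 averaged lower and 2 averaged higher in PTU pups, and in each the groups overlapped. *Bmpr1a* (ENSRNOT00000079554) encodes a type I receptor that is broadly expressed in neural progenitors, and it had 1485 to 2245 normalized counts in control pups (median 1939) and 1473 to 1950 in PTU pups (median 1778). Of the 6 PTU pups, 5 lay inside the control range, and the means were 1872 ± 265 (SD, n = 7) and 1747 ± 199 (SD, n = 6). Its log2 fold change was -0.09 (SE 0.10, 95% confidence interval -0.31 to 0.13, adjusted p = 0.675 in limma; exact permutation p = 0.389), and its sign was not stable, since it was 0.05 with the choroid plexus score as a covariate and 0.11 with the same total for every pup. *Bmpr1b* (ENSRNOT00000109499), the other type I receptor of the family, had 68.8 to 150 normalized counts in control pups (median 99.1) and 87.8 to 189 in PTU pups (median 108). The highest value belonged to PTU pup 3, and the other 5 PTU pups lay within the control range. The log2 fold change of *Bmpr1b* was 0.24 (SE 0.23, 95% confidence interval -0.25 to 0.72, adjusted p = 0.629 in limma; exact permutation p = 0.2995), and it was 0.09 without PTU pup 3.

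*Bmpr2* (ENSRNOT00000100349) encodes the type II receptor, the constitutively active kinase that activates the type I partner. It had 4136 to 5225 normalized counts in control pups (median 4500) and 4583 to 5349 in PTU pups (median 4909). All 6 PTU pups were above the control mean of 4511 ± 360 (SD, n = 7), and their mean was 4906 ± 266 (SD, n = 6), but control pup 1, at 5225, stood above every PTU pup but PTU pup 1. The log2 fold change was 0.12 (SE 0.07, 95% confidence interval -0.03 to 0.27, adjusted p = 0.391 in limma). An unadjusted p of 0.0472 came from the exact permutation test. Without control pup 1 the log2 fold change was 0.16, with an unadjusted limma p of 0.0326 and an adjusted p of 0.275, the lowest of a range up to 0.756 over all alternatives. With the neuron score as a covariate it was 0.07 (unadjusted limma p of 0.367).

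*Smad1* (ENSRNOT00000025079) encodes one of the SMADs that the activated type I receptor phosphorylates, and its transcript level says nothing of its phosphorylation. Control pups had 1081 to 1397 normalized counts (median 1178) and PTU pups 1085 to 1361 (median 1232). All 6 PTU pups fell inside the control range. The means were 1182 ± 113 (SD, n = 7) and 1223 ± 112 (SD, n = 6), and the log2 fold change was 0.05 (SE 0.09, 95% confidence interval -0.14 to 0.23, adjusted p = 0.815 in limma; exact permutation p = 0.505).

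Among the Id genes, *Id4* (ENSRNOT00000021550) had the largest log2 fold change between groups with all pups. Without control pup 1 it did not, at -0.29 against -0.34 for *Id1*. *Id4* is expressed by neural precursors and regulates the timing of their differentiation. Control pups had 8039 to 11540 normalized counts (median 9162), and PTU pups 5413 to 11989 (median 7900). PTU pups 1, 4 and 5 were below every control, while PTU pup 2 had the highest value of all 13 pups. The means were 9617 ± 1472 (SD, n = 7) and 7892 ± 2434 (SD, n = 6), and the log2 fold change was -0.33 (SE 0.16, 95% confidence interval -0.66 to 0.01, adjusted p = 0.319 in limma; exact permutation p = 0.121). The size of the *Id4* difference depended on the pups and covariates in the fit. It was -0.46 without PTU pup 2 (adjusted p = 0.0853 in limma, the lowest of a range up to 0.831 over all alternatives), -0.53 with the choroid plexus score as a covariate (SE 0.17), -0.18 with the endothelial score and -0.12 with the same total for every pup.

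*Id1* (ENSRNOT00000029660), the Id gene most often used as a readout of BMP activity, had 148 to 314 normalized counts in control pups (median 247) and 97.5 to 295 in PTU pups (median 212). The lowest value, 97.5, was that of PTU pup 6, and the other 5 PTU pups lay inside the control range. The means were 238 ± 54.9 (SD, n = 7) and 209 ± 69.1 (SD, n = 6). The log2 fold change of *Id1* was -0.23 (SE 0.24, 95% confidence interval -0.73 to 0.27, adjusted p = 0.65 in limma; exact permutation p = 0.411), and -0.03 without PTU pup 6. With the choroid plexus score as a covariate it was 0.07, so its direction was not established.

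*Id3* (ENSRNOT00000035788), which is often expressed together with *Id1* in germinal tissue and vessels, had 409 to 616 normalized counts in control pups (median 528) and 258 to 660 in PTU pups (median 555). PTU pup 6 was again the lowest, at 258, while PTU pups 4 and 5 were above every control. The means were 528 ± 77.3 (SD, n = 7) and 519 ± 156 (SD, n = 6), with a log2 fold change of -0.08 (SE 0.19, 95% confidence interval -0.48 to 0.32, adjusted p = 0.864 in limma; exact permutation p = 0.757). That value was 0.11 without PTU pup 6, 0.18 with the choroid plexus score and 0.03 with the neuron score as a covariate.

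*Id2* (ENSRNOT00000085925), which is expressed in progenitors and in some postmitotic neurons, had close group means and a wider range among PTU pups. Control pups had 1804 to 2088 normalized counts (median 2010) and PTU pups 1317 to 2672 (median 1863). PTU pups 1 and 3 were above every control pup, and PTU pups 4 and 6 were below every control pup. The means of *Id2* were close, at 1977 ± 101 (SD, n = 7) and 1923 ± 479 (SD, n = 6), with a log2 fold change of -0.08 (SE 0.13, 95% confidence interval -0.34 to 0.19, adjusted p = 0.798 in limma; exact permutation p = 0.607) that was 0.03 without PTU pup 6. The SD of its log2 values was 0.08 in control and 0.36 in PTU pups, a ratio of 4.77, which 0.26% of all rows reached or exceeded.

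A larger spread in the PTU group was seen for *Bmp1* and the 4 Id genes, and it is also common in the whole table. The ratio of the log2 SD in PTU to that in control pups was 2.89 for *Bmp1*, 2.38 for *Id3*, 1.99 for *Id4* and 1.55 for *Id1*. It was above 1 for 7 of the 10 genes, 2 of which (*Bmpr1b* and *Smad1*) were at 1.00 when rounded, against 59.8% of all rows, and its median over all rows was 1.12. The lowest ratios were 0.70 for *Bmpr2*, 0.80 for *Bmpr1a* and 0.98 for *Bmper*. These ratios were not tested, and different pups stood far from their group: PTU pup 2 for *Bmp1*, PTU pups 1, 2 and 4 for *Id4*, PTU pup 6 for *Id1* and *Id3*, and several pups for *Id2*.

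**Figure D3:**
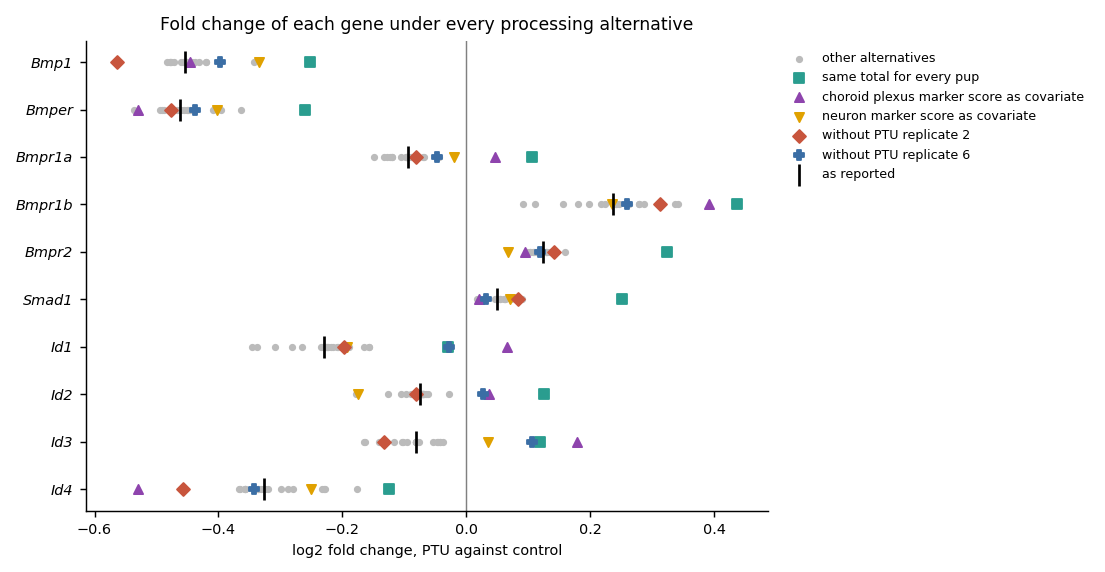
Log2 fold change of PTU against control (horizontal axis) of each of the 10 genes as reported (black bar) and under 27 alternatives, 5 of which are marked by colour and shape and the rest in grey. *Bmp1* and *Bmper* stay below 0 under all 27, while *Bmpr1a*, *Id1*, *Id2* and *Id3* cross 0 under at least 1; with the same total for every pup all genes shift to the right, as does the median of all rows, to 0.20.

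To see whether the Id genes varied together between pups, their log2 values were centred within groups and correlated over the 13 pups, for 6 pairs. The pair *Id1* and *Id2* had Pearson's r = 0.62 (permutation p = 0.0740, adjusted 0.255) and Spearman's rho = 0.56 (permutation p = 0.0779, adjusted 0.467), and r = 0.37 without control pup 1 and PTU pup 6, the pups farthest from the median, and r = 0.25 without PTU pup 6 alone. The pair *Id1* and *Id3* had r = 0.60 (permutation p = 0.0851, adjusted 0.255) and rho = 0.34 (permutation p = 0.301, adjusted 0.489), but r = 0.07 without the same pups, 0.04 without PTU pup 6 alone and 0.68 without control pup 1 alone. No pair passed the threshold, and the relation of *Id1* with *Id3* rested on PTU pup 6. The 3 pairs with *Id4* had a negative r, which turned positive with the same total for every pup (0.21, 0.62 and 0.25 with *Id1*, *Id2* and *Id3*): r was -0.29 with *Id1* (permutation p = 0.450), -0.12 with *Id2* (permutation p = 0.818) and -0.25 with *Id3* (permutation p = 0.552), each with an adjusted p of at least 0.663. For these pairs rho was -0.32 (permutation p = 0.326), 0.02 (permutation p = 0.968) and -0.34 (permutation p = 0.317), and r without the farthest pups was -0.25, 0.49 and -0.21. *Id2* and *Id3* had r = 0.31 (permutation p = 0.496, adjusted 0.663) and rho = -0.15 (permutation p = 0.666), and r = -0.64 without PTU pups 1 and 6.

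**Figure D4:**
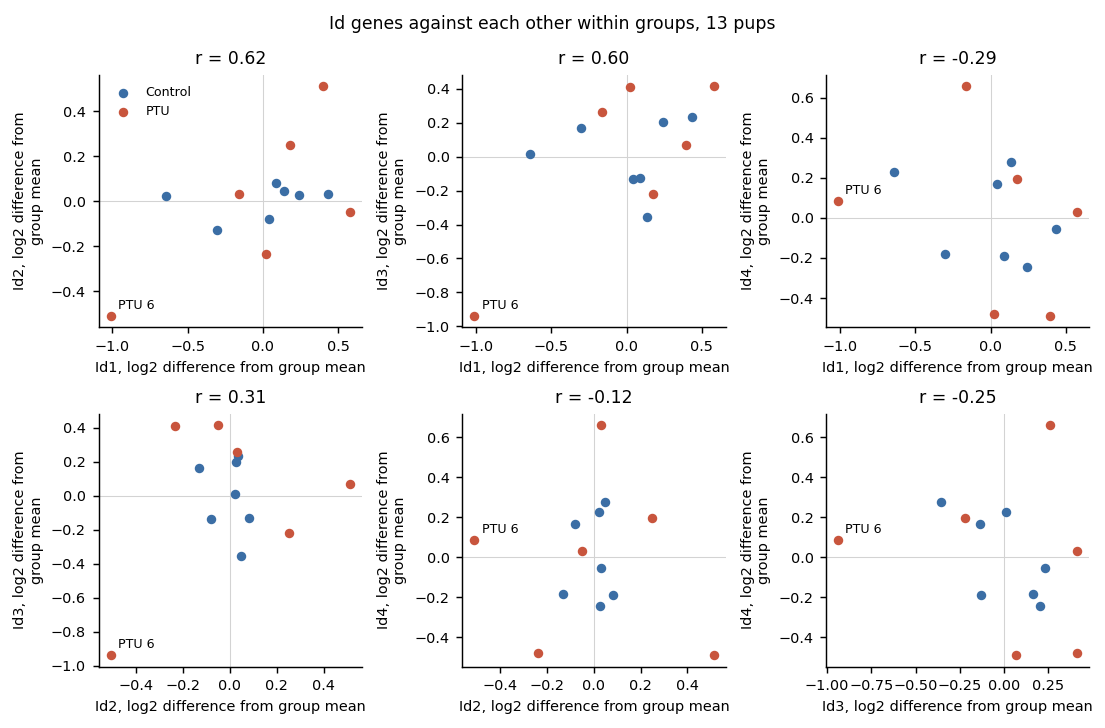
Each Id gene against another, as the log2 difference of each pup from the mean of its group (both axes), for 7 control pups (blue) and 6 PTU pups (red), with Pearson's r above each panel. PTU pup 6, low in *Id1*, *Id2* and *Id3* but not in *Id4*, lies apart in the first 2 panels, where r was 0.62 and 0.60.

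The rows most like each gene across pups were then listed by Pearson's r of the same centred log2 values over the 13 pups, as a description. Each is the top of 14605 rows, so a high r is a property of the search, and pups share their library and its depth across rows. For *Bmp1* they were *Dock8* (r = 0.88), *Pms2* (0.85) and *Rplp0* (0.84), and for *Bmper* they were *Utp6* (0.87), *Apobec1* (0.82) and *Eif2d* (0.81). *Bmpr1a* was most like *Sri* (0.92), *Cpne3* (0.92) and *Dhx32* (0.91), *Bmpr1b* like *Ppm1b* (0.92), *Ube2h* (0.88) and *Purb* (0.87), and *Bmpr2* like *Lifr* (0.87), *Cars* (0.85) and *Rasl11b* (0.85). None of the receptor genes had another of the 10 genes among its top 3. *Smad1* was most like *Zfp786* (0.94), *Snrpa* (0.92) and *Asf1b* (0.91). *Id1* was most like *Tbc1d2* (0.84), *Vwa3b* (0.83) and *Anks4b* (0.83), and *Id2* like *Anks1b* (0.86), *Trps1* (0.84) and *Pcdh9* (0.84). For *Id3* the list held *Glul* (0.94), *Lfng* (0.91) and *Glis3* (0.91), and for *Id4* it held *Marcks* (0.95), *Mplkip* (0.93) and *Gxylt1* (0.91). Of these, *Lfng* encodes a modifier of Notch receptors and *Glul* encodes glutamine synthetase.

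The rest of the pathway, together with partners of ID proteins and related neural factors, was read from lists of 85 other genes, of which 66 had a row and were tested. None of the 66 had an adjusted p of at most 0.05, and the smallest was 0.122. At an unadjusted p under 0.05 in limma there were 13 lower and 2 higher in PTU pups, 22.7% of the 66 against 16.3% of all rows. The balance of directions depended on the scaling and the covariates, with 3 lower and 4 higher with the same total for every pup, and 8 lower and 1 higher with the choroid plexus score. Their median log2 fold change was -0.13. Ligands, antagonists and coreceptors made up 8 of these 15 genes, from lists of 6, 14 and 7 of the 66. E proteins and neural factors made up 3 of the 15, from a list of 10.

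Secreted antagonists and modulators held the largest share, with 5 lower and 0 higher of 14 tested (35.7% against 16.3% of all rows) and a median log2 fold change of -0.24. *Nog*, which encodes Noggin, an antagonist that sequesters BMPs, was the only gene of the 66 whose groups did not overlap, against 0.26% of all rows that were lower without overlap, with 167 to 282 normalized counts in control pups (median 189) and 69.3 to 132 in PTU pups (median 123). The means of *Nog* were 202 ± 41.6 (SD, n = 7) and 115 ± 23.0 (SD, n = 6), and the log2 fold change was -0.82 (SE 0.19, adjusted p = 0.122 in limma). Its exact permutation p of 0.000583 is the smallest that 7 against 6 pups can give. *Chrdl1*, a Chordin-like antagonist, averaged 1238 ± 251 (SD, n = 7) and 840 ± 167 (SD, n = 6), with a log2 fold change of -0.56 (SE 0.15, adjusted p = 0.133 in limma), and 4 of 6 PTU pups were below the lowest control. *Nbl1*, a DAN family antagonist, averaged 1347 ± 117 (SD, n = 7) and 1143 ± 120 (SD, n = 6), with a log2 fold change of -0.24 (SE 0.09, adjusted p = 0.213 in limma).

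Several antagonists had a smaller difference once a marker score was in the fit. *Sostdc1*, an antagonist of BMP and WNT signaling, averaged 2678 ± 837 (SD, n = 7) and 1531 ± 682 (SD, n = 6) normalized counts, a log2 fold change of -0.88 (SE 0.29, adjusted p = 0.175 in limma), which was -0.17 with the choroid plexus score as a covariate. *Fstl1*, a secreted follistatin-like glycoprotein, had a log2 fold change of -0.38 (SE 0.15, adjusted p = 0.221 in limma), and -0.13 with that score. With the same score *Chrdl1* had -0.36 and *Nog* -0.66, and with the neuron score *Nbl1* had -0.14. The part of the other cell types in these differences was not tested beyond these fits.

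Ligands were represented by 6 of 13 listed genes. *Bmp6* had 908 to 1280 normalized counts in control pups (median 1020) and 566 to 1041 in PTU pups (median 850), and 5 of 6 PTU pups were below every control. Its means were 1059 ± 126 (SD, n = 7) and 811 ± 165 (SD, n = 6), with a log2 fold change of -0.40 (SE 0.13, adjusted p = 0.171 in limma). It was the only ligand with an unadjusted p under 0.05, 16.7% of the 6 against 16.3% of all rows. With the choroid plexus score as a covariate *Bmp6* no longer had such a p (log2 fold change -0.28). The median of the 6 was 0.14. *Bmp4*, a classic dorsalizing ligand of the telencephalon, had a log2 fold change of 0.32 (SE 0.31) and *Bmp7* one of -0.48 (SE 0.29). Both of these ligand values were smaller than 2 standard errors. *Bmp2*, *Bmp5*, *Bmp8a*, *Bmp8b*, *Gdf5*, *Gdf6* and *Gdf7* were not analysed here.

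Among 7 coreceptors and other receptors tested, the 2 repulsive guidance molecules stood apart in opposite directions. RGMA and RGMB are membrane-anchored coreceptors that bind BMPs and strengthen their signal. *Rgma* had 4556 to 6049 normalized counts in control pups (median 5150) and 3379 to 4949 in PTU pups (median 3779), and 5 of 6 PTU pups were below every control. *Rgmb* had 966 to 1538 in control pups (median 1232) and 1232 to 1808 in PTU pups (median 1642), and 5 of 6 PTU pups were above every control. The log2 fold changes were -0.41 for *Rgma* (SE 0.10, adjusted p = 0.122 in limma) and 0.35 for *Rgmb* (SE 0.11, adjusted p = 0.164 in limma). The activin receptor genes of the list, *Acvr1*, *Acvrl1*, *Acvr2a* and *Acvr2b*, had unadjusted p-values above 0.05, as did *Eng*, and the median over the 7 genes was 0.05. *Hjv* and *Bambi* were not analysed here.

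*Tll1*, a protease related to *Bmp1*, and *Pcolce*, an enhancer of its action on procollagen, were both measured at low levels. *Tll1* had a log2 fold change of -0.21 (SE 0.40) and *Pcolce* one of -0.91 (SE 0.70), and neither had an unadjusted p under 0.05. The direction of *Tll1* depended on the scale, since its mean normalized count was 116 in control pups (range 91.4 to 143) and 129 in PTU pups (range 25.8 to 293). For *Tll1*, 3 PTU pups were below every control and 3 above every control.

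All 18 listed SMADs and SMAD regulators were tested, and their median log2 fold change was -0.11. The partner SMADs were close between groups, with a log2 fold change of -0.02 (SE 0.07) for *Smad5* and -0.12 (SE 0.08) for *Smad4*. *Smad9* had -0.48 (SE 0.23), and the inhibitory *Smad6* and *Smad7* had -0.21 (SE 0.25) and -0.11 (SE 0.11). *Zfp423* stood out in this list: it encodes a zinc finger protein that binds SMAD1 and SMAD4 on BMP target genes, and it averaged 1979 ± 210 (SD, n = 7) in control and 1488 ± 164 (SD, n = 6) in PTU pups, where 5 of 6 were below every control. Its log2 fold change was -0.41 (SE 0.09, adjusted p = 0.122 in limma). *Ctdspl*, a phosphatase of the family that acts on SMADs, had -0.30 (SE 0.11, adjusted p = 0.22 in limma), and *Ube2o*, a ubiquitin ligase that modifies SMAD6, had 0.21 (SE 0.09, adjusted p = 0.26 in limma), and 0.12 with the neuron score as a covariate.

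Targets other than the Id genes included 1 of 9 with an unadjusted p under 0.05 (11.1% against 16.3% of all rows), *Lmx1a*, a transcription factor of the roof plate and cortical hem. *Lmx1a* averaged 440 ± 149 (SD, n = 7) and 245 ± 134 (SD, n = 6), with a log2 fold change of -0.89 (SE 0.31, adjusted p = 0.189 in limma), which was -0.19 with the choroid plexus score as a covariate. *Msx1* had -0.52 (SE 0.25). The median over the 9 was -0.16.

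The partners of ID proteins were read from 10 genes for E proteins and neural basic helix-loop-helix factors, of which 3 were lower with an unadjusted p under 0.05 and none higher (30% against 16.3% of all rows). *Hes1* and *Hes5*, repressors downstream of Notch that maintain neural progenitors, both showed it. *Hes1* averaged 355 ± 59.5 (SD, n = 7) and 238 ± 51.4 (SD, n = 6), with a log2 fold change of -0.58 (SE 0.16, adjusted p = 0.143 in limma). *Hes5* averaged 238 ± 48.4 (SD, n = 7) and 161 ± 38.0 (SD, n = 6), with -0.57 (SE 0.18, adjusted p = 0.171 in limma), and 5 of 6 PTU pups were below every control. The part of the lower radial glia markers in these differences was not tested. The third was *Tcf3*, the gene of E2A, with -0.35 (SE 0.16, adjusted p = 0.294 in limma). It varied between fits, from -0.15 with the neuron score, -0.18 with the endothelial score and -0.22 without PTU pup 1 to -0.48 without PTU pup 2 and -0.52 with the choroid plexus score, and its unadjusted p was under 0.05 in 14 of 27 alternatives. The E protein genes *Tcf4* and *Tcf12* had 0.11 (SE 0.08) and -0.03 (SE 0.09).

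**Figure D5:**
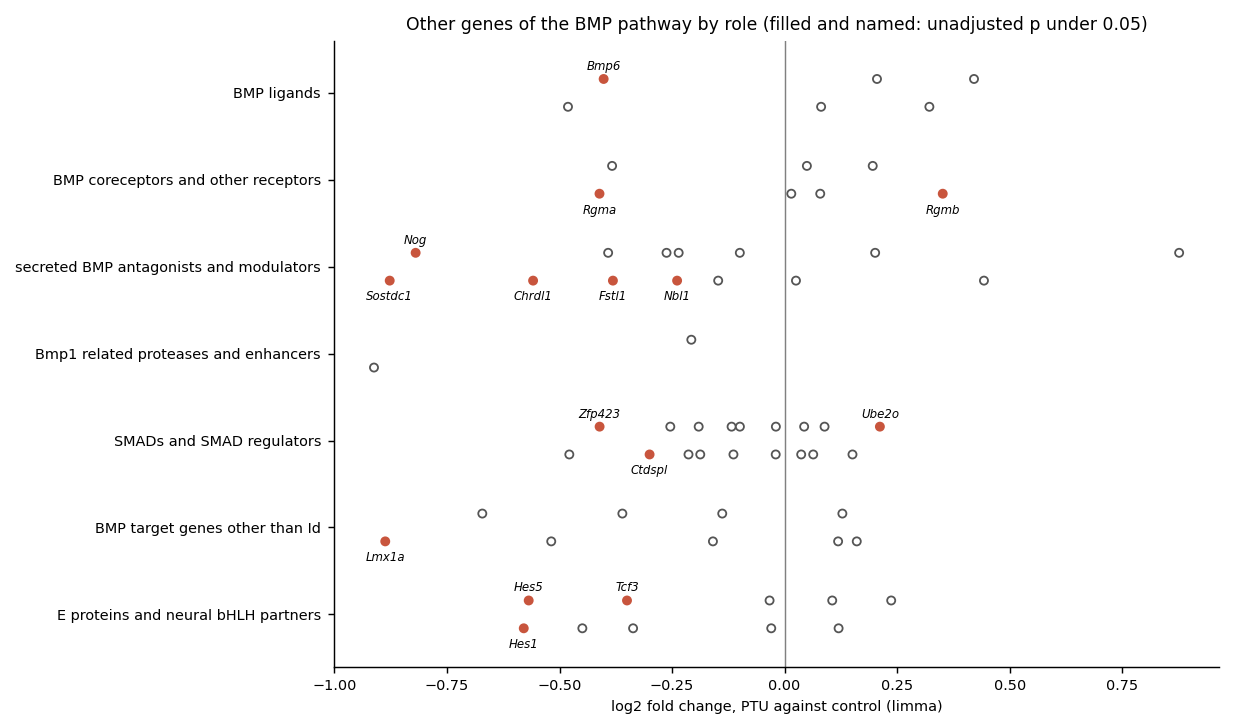
Log2 fold change of PTU against control (horizontal axis, limma) for the 66 other genes tested, those for E proteins and neural factors included, 1 point per gene, by role (vertical axis; the vertical offset within a role only separates points). Filled and named points have an unadjusted p under 0.05, of which 13 lie below 0 and 2 above it, and none passed adjustment.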

How the data were processed

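Total RNA libraries of laser captured VZ were sequenced from 7 control and 6 PTU pups. The authors used Trimmomatic for trimming and STAR 2.7.8a for alignment to mRatBN7.2. Partek's E/M model, which splits reads shared by similar transcripts, gave their counts, and size factors from median ratios scaled each pup. What was deposited is therefore a signal, normalized counts, and not raw counts. Between 88.9 and 90.5% of values from 20 to 150 were whole multiples (tolerance 0.05) of a step per pup, so whole reads were not recovered and no count model was used. Deposited columns of the authors' DESeq2 comparison (p-value, FDR, ratio, log2 ratio, fold change, group means) were not used. The methods name a RefSeq annotation, whereas rows carry Ensembl identifiers.

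Rows averaging at least 10 were compared as log2(normalized count + 1) with limma 3.58.1 (variance trend) in R 4.3.3, which understates changes of low genes, with a call at an adjusted p of at most 0.05. Exact permutation tests used the mean log2 difference, and correlations 100000 permutations. Marker scores are means of row-centred log2 values. Other steps ran in Python 3.11.15 with scipy 1.17.1, pandas 2.3.3, numpy 2.4.6 and, for plots, matplotlib 3.10.9. The tests were checked on simulated data. Named were the 10 genes, pathway genes with an unadjusted p under 0.05 or of a role the text describes (these chosen after their values were seen), and the 3 most similar rows per gene. The genes and lists were chosen with earlier results of these data known, and 2 listed genes are not reported here. Alternatives were pseudocounts of 0.1 and 10, no filter or a mean of at least 100, 3 scalings, pup weights, no variance trend, summed rows, the replicate number as a block, 3 marker scores as covariates and each pup left out.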

Additional observations from a re-analysis of the deposited data

Results flagged for a closer look

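Within each group, the highest and the lowest pup were compared with the nearest other pup for the 10 genes and the 15 pathway genes with an unadjusted p under 0.05, 50 groups in all, and 3 gaps were wide for the range of the group by Dixon's criterion. Chance gives about 1 in 20 groups. *Bmpr1b* was 189 normalized counts in PTU pup 3, where the next pup had 120. *Nog* was 69.3 in PTU pup 6, where the next pup had 116. *Ube2o* was 2700 in PTU pup 1, where the next pup had 2173.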

How the results depend on the processing

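Of 270 values of the 10 genes under 27 alternatives, 259 kept direction and side of the threshold, 1 passed it (*Bmp1* without PTU pup 2) and 10 changed sign, in 4 genes. With the same total for every pup, which moved the median of all rows to 0.20, *Bmpr1a*, *Id2* and *Id3* had log2 fold changes of 0.11, 0.13 and 0.12, no gene of the 10 (0, of which 0 lower) had an unadjusted p under 0.05, and of the other pathway genes 3 were lower and 4 higher. In that scaling r was 0.21 for *Id1* and *Id4*, 0.62 for *Id2* and *Id4* and 0.25 for *Id3* and *Id4*, and it was 0.71 for *Id1* and *Id2* and 0.59 for *Id2* and *Id3*. The same total without the 3 highest rows, which took 23.9 to 60.1% of the reads, was added after seeing the data and gave -0.45 for *Bmp1* and -0.46 for *Bmper*. With the choroid plexus score as a covariate *Bmpr1a*, *Id1*, *Id2* and *Id3* had 0.046, 0.066, 0.036 and 0.18, 4 rows were called and 8 lower and 1 higher pathway genes had an unadjusted p under 0.05; with the neuron score *Id3* had 0.0345. Array weights called 40 rows.

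Leaving out each pup in turn called 0 to 1 of the 10 genes, 0 to 179 rows (179 without PTU pup 2, 7 without control pup 6) and 0 to 3 other pathway genes (*Rgma*, *Zfp423* and *Hes1* without PTU pup 2). It gave 2 to 3 of the 10 genes an unadjusted p under 0.05, 2 to 3 lower and 0 to 1 higher (*Bmpr2* without control pup 1), and 11 to 18 lower and 1 to 3 higher pathway genes. *Id2* ranged from -0.18 to 0.026 and *Id3* from -0.16 to 0.11, both highest without PTU pup 6. The r of *Id2* and *Id4* ranged from -0.32 to 0.33 (without PTU pup 1), and that of *Id2* and *Id3* from -0.55 (without PTU pup 6) to 0.47; without PTU pup 6 that of *Id1* was 0.25 with *Id2* and 0.04 with *Id3*. The cause was not tested.

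Pups of the same replicate number come from different litters, and nothing in the labels pairs them. Their deviations from the group means correlated with r from -0.07 to 0.20 over 6 pairs, 4 of them over 0.1, and 3 control pups were closest to their own number, so a pairing was not established. With the replicate number as a block 18 rows and none of the 10 genes were called, with -0.48 for *Bmp1*, and 3 of the 10, *Id4* included, had an unadjusted p under 0.05. Depth limits *Bmpr1b* and *Id1* most.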
